A study of Mus musculus with 16 samples.

Results

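The genes described here are those whose difference between simulated 0g and 1g was not the same in untreated Pthrp-/- and untreated Pthrp+/+ trabecular osteoblasts (TOs). For each gene the 0g minus 1g difference of Pthrp+/+ TOs was subtracted from the 0g minus 1g difference of Pthrp-/- TOs, on the log2 scale. This difference of differences is called the interaction. A positive (higher) interaction means that the level at 0g relative to 1g was higher in Pthrp-/- than in Pthrp+/+ TOs, and a negative (lower) one that it was lower. The members were found by the labels alone, as every untreated array of the series, 8 of 16 arrays in all. They form 4 groups of 2 arrays each, which are Pthrp-/- TOs at 0g, Pthrp-/- TOs at 1g, Pthrp+/+ TOs at 0g and Pthrp+/+ TOs at 1g.

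All 4 groups were primary cells of C57BL/6 embryos collected 1 day before birth, and the Pthrp-/- cells carried a constitutive deletion. The labels give the bone as tibia in one field and femur in another, and the methods give the femur. Cells were attached to plastic microcarriers and kept for 6 days in a rotating vessel, which keeps the carriers in free fall (0g), or in static agarose-coated plasticware (1g). Gravity therefore cannot be told apart from rotation or from the vessel. The 8 untreated cultures had their medium changed each day and no peptide. The other 8 arrays, from cells that received PTHrP1-36 peptide at 10 nM for 2 h per day, entered the same fit and are used here only to show whether an interaction was also present with the peptide.

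Parathyroid hormone-related protein (PTHrP) is a secreted factor that acts on osteoblasts and their precursors mainly through the receptor Pth1r, which raises cyclic AMP. It is made by the same bone cells that respond to it, and in mice its loss makes growth plate cartilage mature too early. Osteoblasts also sense load and fluid flow, through adhesions, the actin cytoskeleton and secreted matrix. An interaction of genotype and gravity asks whether cells that cannot make PTHrP respond to the change of gravity as wild-type cells do.

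The array holds 0 probes for Pthlh, the gene of PTHrP, so the deletion could not be checked. Between 12161 and 13560 of 25697 probes were detected per untreated array, and the 2 arrays within a group had a Pearson's r of 0.989 to 0.996 over probes. Among the osteoblast markers on the array, Sp7, Bglap and Col1a1 were detected on both arrays of every group, Alpl on both in all groups except Pthrp-/- TOs at 0g, Ibsp on both only in Pthrp+/+ TOs at 1g, and Dmp1 on both in none. Of 9 macrophage markers on the array, 1 (Lyz2) was detected on both arrays in Pthrp-/- TOs at 0g and at 1g, against 8 in Pthrp+/+ TOs at 0g and 9 in Pthrp+/+ TOs at 1g. Their summed non-normalized intensity was 483 to 596 in Pthrp-/- TOs at 0g, 579 to 673 in Pthrp-/- TOs at 1g, 41377 to 46144 in Pthrp+/+ TOs at 0g and 59191 to 71250 in Pthrp+/+ TOs at 1g. In bulk RNA, fewer cells of a type and less RNA per cell cannot be told apart. The arrays come from duplicate experiments that are not said to be separate animals, so the p-values cover only the spread from one culture to another, which may be technical.

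Across 10438 tested genes the gravity differences of the genotypes ran against each other. Pearson's r between the Pthrp-/- and the Pthrp+/+ difference was -0.361, and it was -0.264 in the treated cells, over genes, which are not independent replicates. No gene on the array gives a check of the gravity labels. Results are therefore also given with the gravity labels of the 4 untreated Pthrp-/- arrays exchanged, as the exchanged interaction, and whether the labels or the cells differed was not tested. The gravity differences of untreated and treated cells, which come from separate arrays, correlated across genes at 0.584 in Pthrp-/- and 0.776 in Pthrp+/+ TOs. Genes of glycolysis mostly kept 1 direction. Of 14 glycolysis enzymes tested, 11 were lower at 0g than at 1g in both genotypes and 2 had opposite signs, and of 25 hypoxia-induced genes 14 were lower at 0g in both and 10 had opposite signs, beside 59.3% of all tested genes with opposite signs.

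At a Benjamini-Hochberg adjusted p under 0.05 from limma, 2941 genes were called by at least 1 probe, 1437 of them higher and 1505 lower. Only Lyz1 was called both ways, by different probes. At an unadjusted p under 0.05 there were 4222. Read with 1 probe per gene, 25.9% of tested genes were called, 12.9% higher and 12.9% lower. All 2702 of these genes had the same sign in all 16 choices of 1 array per group, as had 45% of all tested genes. The call rests on the same arrays and itself favours this. Among calls by any probe the share of higher calls was 48.8%, 60.8% after cyclic loess normalization, and 41.3% (1036 higher, 1471 lower) over probes detected on all 8 untreated arrays. Over all genes the median interaction was -0.033, with 5% of genes below -0.899 and 5% above 1.15. With the labels exchanged 13.3% of genes were called, 7.27% higher and 6.04% lower. Of the 2702 genes, 796 (29.5%) kept their call and direction with the labels exchanged, and 80 (2.96%) were called in the other direction.

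In 2375 of the 2702 called genes (87.9%), the 0g minus 1g difference had opposite signs in the genotypes, beside 59.3% of all tested genes. Another 296 (11%) had the same sign and a smaller difference in Pthrp-/- TOs, and 31 (1.15%) the same sign and a larger one. The choice of genes by their interaction itself favours opposite signs. These are signs of estimates and were not tested, and some differences were small, as for Klk8 in Pthrp-/- TOs (-0.08). The difference of Pthrp-/- TOs was the larger in size in 701 genes (25.9%). Set out the other way, the gap between Pthrp-/- and Pthrp+/+ TOs was narrower at 0g than at 1g in 1433 genes (53%), changed sign in 1123 (41.6%) and was wider at 0g in 146 (5.4%). In 354 of the called genes (13.1%) at least 2 groups had the probe detected on neither array, 292 of them higher and 62 lower, and for these the interaction rests on the remaining groups.

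**Figure D1:**
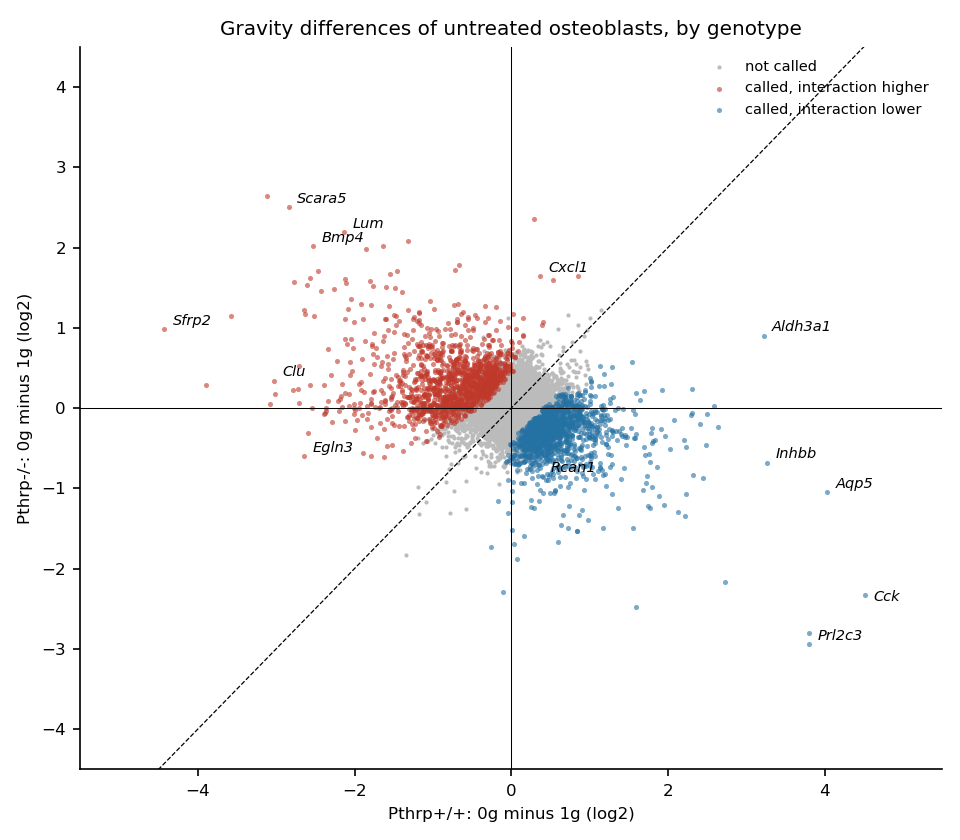
The 0g minus 1g difference of untreated Pthrp-/- TOs (vertical axis, log2) against that of untreated Pthrp+/+ TOs (horizontal axis, log2), 1 point per tested gene, with the line of equal differences dashed. Called genes lie mostly in the upper left (higher interaction) and lower right (lower interaction) parts of the plot. The signs of the estimates are opposite there, as in 2375 of 2702 called genes, beside 59.3% of all tested genes. The choice of genes by their interaction itself favours this.

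Among genes with the lowest interactions, Cck, which encodes the peptide hormone cholecystokinin, stood at 5.7 and 5.69 on the normalized log2 scale in Pthrp-/- TOs at 0g and at 7.98 and 8.06 in Pthrp-/- TOs at 1g, with 9.94 and 10.28 in Pthrp+/+ TOs at 0g and 5.6 and 5.59 in Pthrp+/+ TOs at 1g. Both Pthrp-/- arrays at 0g lay near the Pthrp+/+ arrays at 1g, and no pair of groups within a genotype overlapped. Its interaction was -6.84 ± 0.19 (SE, n = 2 arrays per group, limma adjusted p = 6.78e-11), and -2.19 with the labels exchanged. Prl2c3, a proliferin of the prolactin family known from mouse placenta, stood at 11.15 and 11.23 in Pthrp-/- TOs at 0g, 14.08 and 14.19 in Pthrp-/- TOs at 1g, 13.45 and 13.44 in Pthrp+/+ TOs at 0g, and 9.54 and 9.75 in Pthrp+/+ TOs at 1g. The 1g arrays of the genotypes were thus the highest and the lowest of the 4 groups, and no groups overlapped. Its interaction was -6.74 ± 0.16 (adjusted p = 2.3e-11). The near-identical Prl2c4 had -6.6, and Prl2c1, which was detected on neither array in 2 groups, had a bound of -3.26, that is at least 9.55-fold lower. Signals of these copies may not be separable by probe. With the labels exchanged Prl2c3 kept -0.86, Prl2c4 kept -1 and Prl2c1 turned to 0.89 (adjusted p = 0.0585).

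The promoter of Prl2c3 is shown because the gene has the lowest interaction of the proliferins. These are the 250 bases before its start in RefSeq (GRCm38.p6, chr13:12800080-12800329, minus strand, 5′ to 3′). Capitals mark a match to TGANTCA, where N is any base, searched on both strands. This pattern is looser than the motif of AP-1 factors, which has C or G at N.
Prl2c3: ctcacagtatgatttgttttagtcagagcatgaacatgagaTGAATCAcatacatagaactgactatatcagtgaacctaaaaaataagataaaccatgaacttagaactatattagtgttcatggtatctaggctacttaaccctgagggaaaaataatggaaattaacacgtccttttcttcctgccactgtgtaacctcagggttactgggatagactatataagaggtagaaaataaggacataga
The match has A at N, so it is not a full AP-1 motif, and it lies 209 bases before the start. Of all 32851 promoter windows of 300 bases, 7.81% hold a match to TGANTCA.

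Other genes with low interactions work in water transport, steroid metabolism and signalling. Aqp5, a water channel, stood at 9.92 and 9.64 in Pthrp-/- TOs at 0g and 10.94 and 10.75 in Pthrp-/- TOs at 1g, against 9.28 and 9.21 in Pthrp+/+ TOs at 0g and 4.86 and 5.15 in Pthrp+/+ TOs at 1g. Only the Pthrp+/+ arrays at 1g were low, and the interaction was -5.3 ± 0.19 (adjusted p = 7.69e-10). On these arrays Aqp5 was detected but near 4.83, where detection began, so the size of its interaction depends on signals near that limit. Akr1c18, which inactivates progesterone, had -4.91 ± 0.25. Whrn, a scaffold protein known from hair cells of the ear, had -3.56 ± 0.21. Esd, an esterase of the glutathione system, had -3.58 ± 0.14 by the probe with the largest interaction and -1.04 by its brightest probe. Among genes with a bound, Serpinb2, an inhibitor of plasminogen activators, was at least 9.25-fold lower and Lor, a protein of the skin barrier, at least 6.39-fold lower. The muscle acetylcholine receptor subunit Chrna1, the transporter Slco4a1 and 1700012B09Rik were at least 3.88- to 4.45-fold lower, and the sign of all 3 turned with the labels exchanged. A second probe of Slco4a1 gave -0.3 and was not called.

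Among genes with the highest interactions, Scara5, a scavenger receptor that takes up ferritin, stood at 8.61 and 8.9 in Pthrp-/- TOs at 0g, 6.25 on both arrays of Pthrp-/- TOs at 1g, 7.99 and 7.54 in Pthrp+/+ TOs at 0g, and 10.62 and 10.6 in Pthrp+/+ TOs at 1g. The 1g arrays were the lowest in Pthrp-/- and the highest in Pthrp+/+ TOs. Its interaction was 5.35 ± 0.21 (adjusted p = 2.16e-09), but 0.34 with the labels exchanged (adjusted p = 0.372). Rbm3, an RNA-binding protein induced by cold, had 3.84 ± 0.17, Ecrg4, the precursor of a secreted peptide, 3.8 ± 0.25, the transmembrane protein Tenm4 3.74 ± 0.26, and the transcriptional cofactor Ldb2 3.88 ± 0.29. A dim second probe of Rbm3 gave -0.02. Sfrp2, a secreted regulator of Wnt signalling, was detected on neither array of Pthrp-/- TOs at 1g and was at least 35.1-fold higher by the interaction. The bounds of the lipocalin Apod (15.2-fold), the chemokine-like Rarres2 (10.4-fold), the matrix protein Mfap4 (7.54-fold), the homeobox factor Meox1 (7.45-fold) and the haemoglobin carrier Hp (7.18-fold) were smaller. For Hp the probe used had a gravity difference of 0.44 in Pthrp-/- TOs (limma adjusted p = 0.179) and -2.88 in Pthrp+/+ TOs. The brightest probe of Hp (4.18) was detected on neither array of both Pthrp-/- groups, so its value rests on the Pthrp+/+ arrays.

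**Figure D2:**
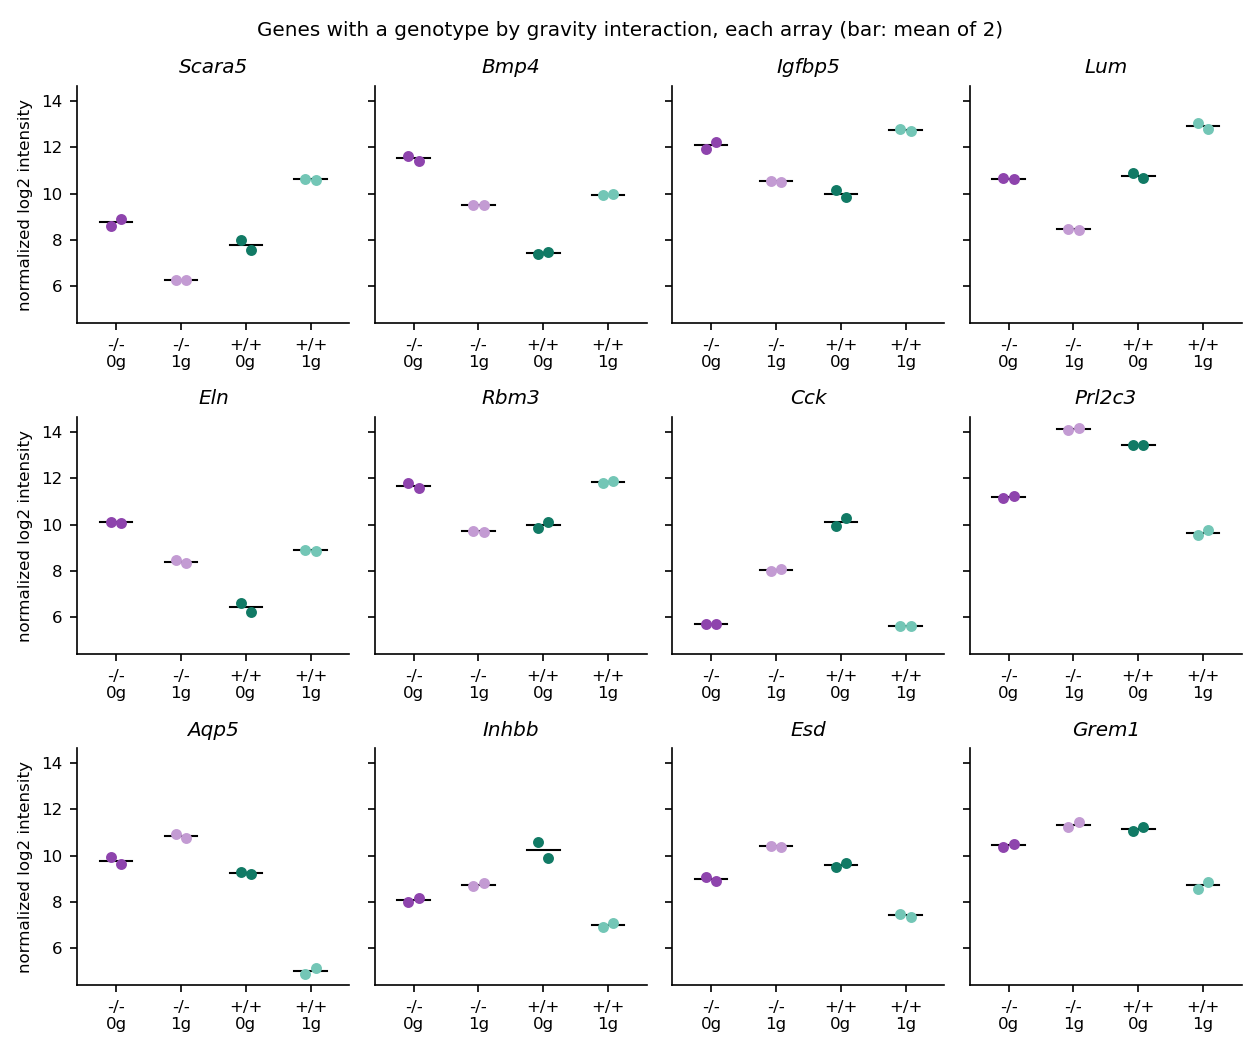
Normalized log2 intensity of 12 genes on each untreated array, with the mean of the 2 arrays of a group as a bar and the groups in the order Pthrp-/- 0g, Pthrp-/- 1g, Pthrp+/+ 0g, Pthrp+/+ 1g. In the first 6 genes (interactions of 3.84 to 5.35) Pthrp-/- TOs were higher and Pthrp+/+ TOs lower at 0g than at 1g, and in the last 6 (-6.84 to -3.32) the reverse.

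Matrix gene lists differed in their counts. Counts of these and all later lists are read beside all genes, of which 12.9% were called higher and 12.9% lower. With the labels exchanged these shares were 7.27% and 6.04%. No difference of a list from these shares was tested. Of 16 basement membrane collagens and laminins 6 were called higher and 1 lower (43.8%, median 0.18), beside 25.9% of all genes called. Of 22 collagen processing enzymes 2 were called higher and 3 lower (22.7%, median 0.1), a share near that of all genes. Of 16 matrix metalloproteinases and their inhibitors 6 were called higher and 4 lower (62.5%, median 0.14). Of 14 fibrillar and associated collagens tested, 9 were called higher and 1 lower (71.4%), with a median of 0.91 against -0.033 over all genes. Col14a1 had 3.08 ± 0.17, Col27a1 1.59 ± 0.23, Col5a2 1.57 ± 0.35 and Col3a1 1.67 ± 0.55, the last with an adjusted p of 0.0423 and a second probe at 2.16 ± 0.2. The call of the first Col3a1 probe was lost in 5 of 8 fits that left out 1 array, with values down to 0.96 without Pthrp-/- 0g replicate 2 (adjusted p = 0.142). Col1a2, a chain of the main collagen of bone, stood at 11.3 and 11.19 in Pthrp-/- TOs at 0g, 10.53 and 10.77 in Pthrp-/- TOs at 1g, 11.08 and 10.63 in Pthrp+/+ TOs at 0g, and 11.78 and 11.83 in Pthrp+/+ TOs at 1g, an interaction of 1.55 ± 0.21. The Pthrp+/+ arrays at 1g were the highest and the Pthrp-/- arrays at 1g among the lowest, and Pthrp+/+ TOs at 0g overlapped with Pthrp-/- TOs at 1g. Under exchanged labels 1 collagen was called higher and 1 lower.

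Of 10 small leucine-rich proteoglycans, which bind collagen fibrils and growth factors, 5 were called higher and 1 lower (60%, beside 25.9% of all genes, median 1.04). Lum stood at 10.66 and 10.63 in Pthrp-/- TOs at 0g and 8.46 and 8.43 in Pthrp-/- TOs at 1g, against 10.89 and 10.67 in Pthrp+/+ TOs at 0g and 13.04 and 12.79 in Pthrp+/+ TOs at 1g. The genotypes were level at 0g and far apart at 1g, with an interaction of 4.33 ± 0.17 (adjusted p = 2.16e-09). Dcn had 4.2 ± 0.15 by one probe and 3.4 ± 0.17 by its brightest, Ogn 2.18 ± 0.15, and Kera, undetected in 1 group, a lower bound of 2.27 on the log2 scale. Of 19 matricellular and elastic fibre proteins 9 were called higher and 2 lower (57.9%, median 0.75). Eln, which encodes elastin, stood at 10.13 and 10.08 in Pthrp-/- TOs at 0g, 8.47 and 8.32 in Pthrp-/- TOs at 1g, 6.61 and 6.23 in Pthrp+/+ TOs at 0g, and 8.9 and 8.87 in Pthrp+/+ TOs at 1g. The genotypes were near each other at 1g, and the groups at 0g lay on either side, with an interaction of 4.18 ± 0.19. Dpt, which binds decorin, had a lower bound of 2.59 on the log2 scale and Matn4, a matrilin, 2.5 ± 0.25. Abi3bp and Ptn, secreted matrix-binding proteins outside these lists, had 3.88 ± 0.16 and 4.19 ± 0.15. After the exchange of labels the median of the proteoglycans was -0.25 and that of the matricellular proteins -0.02.

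Ligands and inhibitors of the BMP and activin pathway moved in both directions. Of 21 members tested 5 were called higher and 8 lower (61.9%, beside 25.9% of all genes, median -0.52). Bmp4, a ligand that promotes bone formation, stood at 11.63 and 11.42 in Pthrp-/- TOs at 0g and 9.5 and 9.51 in Pthrp-/- TOs at 1g, against 7.37 and 7.47 in Pthrp+/+ TOs at 0g and 9.93 and 9.97 in Pthrp+/+ TOs at 1g. The groups did not overlap, and those at 0g were the highest and the lowest. Its interaction was 4.55 ± 0.14 (adjusted p = 3.08e-10), 0.5 with the labels exchanged. The BMP antagonist Grem1 had -3.32 ± 0.22, and the activin subunits Inhbb and Inhba had -3.95 ± 0.24 and -2.23 ± 0.14. These 3 were also called lower with the labels exchanged (-1.57, -2.59 and -1.44).

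Among IGF genes, 6 of 12 were called higher and 1 lower (58.3%, beside 25.9% of all genes, median 0.53). Igfbp5, an IGF-binding protein abundant in bone, stood at 11.95 and 12.25 in Pthrp-/- TOs at 0g, 10.53 and 10.52 in Pthrp-/- TOs at 1g, 10.14 and 9.83 in Pthrp+/+ TOs at 0g, and 12.81 and 12.72 in Pthrp+/+ TOs at 1g. The groups did not overlap, and the interaction was 4.35 ± 0.18. The ligands Igf2 and Igf1 had 3.67 ± 0.14 and 1.3 ± 0.23, and the binding protein Igfbp3 had 2.28 ± 0.21. Of 14 Wnt antagonists 3 were called higher and 2 lower (35.7%, beside 25.9% of all genes). Besides Sfrp2 these included the secreted Sfrp1 (3.11 ± 0.14), the intracellular Nkd2 (-2.87 ± 0.13) and the Wnt-inactivating enzyme Notum (-1.6 ± 0.2). Of 11 targets of YAP, a coactivator that responds to tension, 1 was called higher and 5 lower (54.5%, median -0.5). Ankrd1 had -2.23 ± 0.2, Ccn2 -1.13 ± 0.14 and Ptpn14 -0.98 ± 0.19, and the ectonucleotidase Nt5e 1.82 ± 0.16, though a dim second probe of Nt5e gave 0.1. When the labels were exchanged 8 of the 11 were called lower, beside 6.04% of all genes.

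Genes of the osteoblast programme and of PTH signalling were called in both directions. Pth1r, the receptor of PTHrP, stood at 7.12 and 6.43 in Pthrp-/- TOs at 0g, 6.81 and 6.39 in Pthrp-/- TOs at 1g, 6.19 on both arrays of Pthrp+/+ TOs at 0g, and 6.46 and 6.34 in Pthrp+/+ TOs at 1g. The Pthrp-/- groups overlapped with each other, and the interaction was 0.39 with a 95% interval of -0.23 to 1 (adjusted p = 0.375). Its other probes gave 0.38 and -0.31 and were not called either. Without Pthrp-/- 0g replicate 2 the first probe had 0.73 (adjusted p = 0.0418). Of 21 osteoblast differentiation and mineralization genes 6 were called higher and 5 lower (52.4%, beside 25.9% of all genes). Ank, which exports pyrophosphate, had -1.98 ± 0.14, while Ibsp, a mineral-binding matrix protein, had 1.51 ± 0.22 but was detected on neither array of 2 groups. Of 20 genes of PTH receptor and cAMP response, 2 were called higher and 4 lower, a share of 30% against 25.9% of all genes. The receptor-activity-modifying proteins Ramp3 and Ramp2 had -2.37 ± 0.17 and 1.86 ± 0.14, and the kinase Sgk1 and the nuclear receptor Nr4a2 had -1.5 ± 0.15 and -1.36 ± 0.15.

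Genes of cell division had higher interactions. Of 26 genes of mitosis and cytokinesis 21 were called higher and 0 lower (80.8%, beside 25.9% of all genes), with a median of 1.43. Anln, a scaffold of the cytokinetic ring, stood at 7.14 and 7.3 in Pthrp-/- TOs at 0g, 6.09 and 5.99 in Pthrp-/- TOs at 1g, 8.86 and 9.15 in Pthrp+/+ TOs at 0g, and 10.22 and 10.14 in Pthrp+/+ TOs at 1g. Pthrp-/- TOs were below Pthrp+/+ TOs at both gravities, by less at 0g, and the interaction was 2.36 ± 0.17 (adjusted p = 4.1e-07). The spindle proteins Nusap1 and Prc1 had 2.28 ± 0.17 and 1.98 ± 0.16, and the mitotic kinase Pbk a lower bound of 1.79 on the log2 scale. Of the 26 genes, 5 were detected on neither array of both Pthrp-/- groups, and 8 in at least 1 group. Of 32 genes of DNA replication and S phase 15 were called higher and 1 lower (50%, median 0.63). Tk1, a thymidine kinase, had 2.54 ± 0.21, Uhrf1 1.6 ± 0.14, the ligase Lig1 1.36 ± 0.28 and the helicase subunit Mcm5 1.29 ± 0.16. Dimmer second probes of Tk1 (0.4) and Anln (0.37), and 2 of Lig1 (0.27 and 0.36), were not called. Under exchanged labels 11 mitosis genes and 7 S phase genes were called, all higher, beside 7.27% of all genes called higher.

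Histone genes divided by class. Of 11 H2B genes 10 were called lower and 0 higher (90.9%, beside 25.9% of all genes, median -1.38). Of 16 genes of H1, H3 and H4 10 were called lower and 0 higher (62.5%, median -1.59). By contrast, of 15 H2A genes 9 were called higher and 3 lower (80%, median 0.99). H4c8 stood at 10.13 and 10.12 in Pthrp-/- TOs at 0g, 11.18 and 11.2 in Pthrp-/- TOs at 1g, 10.17 and 10.34 in Pthrp+/+ TOs at 0g, and 7.9 and 8.16 in Pthrp+/+ TOs at 1g, and its interaction was -3.29 ± 0.17 (adjusted p = 2.54e-08). Only the Pthrp+/+ arrays at 1g were low. H2bc6 had -3.15 ± 0.17 and H2bc14 -1.56 ± 0.17, and H4c18, H4c12, H4c11 and H4c6 had -3.15, -3.02, -2.7 and -2.19. H2ac10, H2ac11, H2ac7 and H2ac15 had 2.53, 2.51, 2.48 and 2.47. Many genes of one class are near-identical copies, so their probes may read a shared signal and are not independent.

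Several H2A and H2B genes of mouse chromosome 13 face away from each other across a shared promoter, and such neighbours differed in sign. H2ac7, H2ac11, H2ac12 and H2ac15 were called higher (2.48, 2.51, 2.12 and 2.47), and the H2B gene opposite each, H2bc7, H2bc11, H2bc12 and H2bc15, was called lower (-1.28, -1.51, -1.57 and -1.33). H2ac12 stood at 8.21 and 7.85 in Pthrp-/- TOs at 0g, 7.51 and 7.44 in Pthrp-/- TOs at 1g, 10.19 and 10.47 in Pthrp+/+ TOs at 0g, and 11.81 and 11.99 in Pthrp+/+ TOs at 1g. Its neighbour H2bc12 stood at 10.43 and 9.98 in Pthrp-/- TOs at 0g, 10.51 and 10.49 in Pthrp-/- TOs at 1g, 10.1 and 10.22 in Pthrp+/+ TOs at 0g, and 8.83 and 8.92 in Pthrp+/+ TOs at 1g. The Pthrp+/+ arrays at 1g were thus the highest for the H2A gene and the lowest for the H2B gene. In the fifth pair both genes were called lower, H2ac8 at -1.71 ± 0.2 and H2bc8 at -1.41 ± 0.29. The exchange of labels left the pairs H2ac7/H2bc7, H2ac11/H2bc11, H2ac12/H2bc12 and H2ac15/H2bc15 with opposite signs and called, while H2bc8 turned to 0.33. These pairs were chosen after their values were seen.

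The bases between the starts of each pair are shown because opposite calls came from either side of one stretch. They are from RefSeq (GRCm38.p6), 5′ to 3′ on the strand of the H2B gene. Capitals mark CCAAT, the octamer ATGCAAAT and TATAAA, each searched on both strands.
H2ac7/H2bc7, chr13:23574208-23574380: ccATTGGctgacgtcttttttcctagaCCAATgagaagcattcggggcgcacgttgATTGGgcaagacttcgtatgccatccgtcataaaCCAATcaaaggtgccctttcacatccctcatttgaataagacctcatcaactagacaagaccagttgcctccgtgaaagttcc
H2ac11/H2bc11, chr13:22042950-22043197: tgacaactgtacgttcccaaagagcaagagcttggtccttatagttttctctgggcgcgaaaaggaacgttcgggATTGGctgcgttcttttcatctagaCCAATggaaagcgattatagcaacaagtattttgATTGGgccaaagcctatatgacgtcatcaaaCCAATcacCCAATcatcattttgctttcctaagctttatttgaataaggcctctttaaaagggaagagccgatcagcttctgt
H2ac12/H2bc12, chr13:22035644-22035820: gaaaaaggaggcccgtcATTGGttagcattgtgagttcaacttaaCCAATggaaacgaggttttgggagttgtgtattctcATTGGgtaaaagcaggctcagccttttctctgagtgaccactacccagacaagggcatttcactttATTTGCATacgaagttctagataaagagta
H2ac15/H2bc15, chr13:21753913-21754075: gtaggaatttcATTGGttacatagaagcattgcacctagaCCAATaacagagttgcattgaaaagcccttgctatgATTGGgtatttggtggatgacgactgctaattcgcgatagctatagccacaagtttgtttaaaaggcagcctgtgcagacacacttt
H2ac8/H2bc8, chr13:23571221-23571399: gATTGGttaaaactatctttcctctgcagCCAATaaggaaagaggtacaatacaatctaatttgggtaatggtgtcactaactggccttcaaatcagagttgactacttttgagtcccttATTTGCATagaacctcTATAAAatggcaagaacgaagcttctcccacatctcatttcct
The H2bc7 gene lies on the minus strand and the other H2B genes on the plus strand. The stretches hold 4, 5, 3, 3 and 2 matches to CCAAT in the order shown. The octamer has 1 match in the H2ac12/H2bc12 stretch and 1 in the H2ac8/H2bc8 stretch, and TATAAA has 1 match, in the H2ac8/H2bc8 stretch. Of all 32851 promoter windows of 300 bases, 37.4% hold CCAAT, 1.74% the octamer and 13.6% TATAAA. The stretches shown are shorter, at 163 to 248 bases. In their own windows, all 15 H2A and all 10 H2B genes of the lists hold CCAAT. The octamer is held by 7 of the 15 and 6 of the 10, and TATAAA by 11 and 5. The motifs are thus not particular to the pairs with opposite calls.

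**Figure D3:**
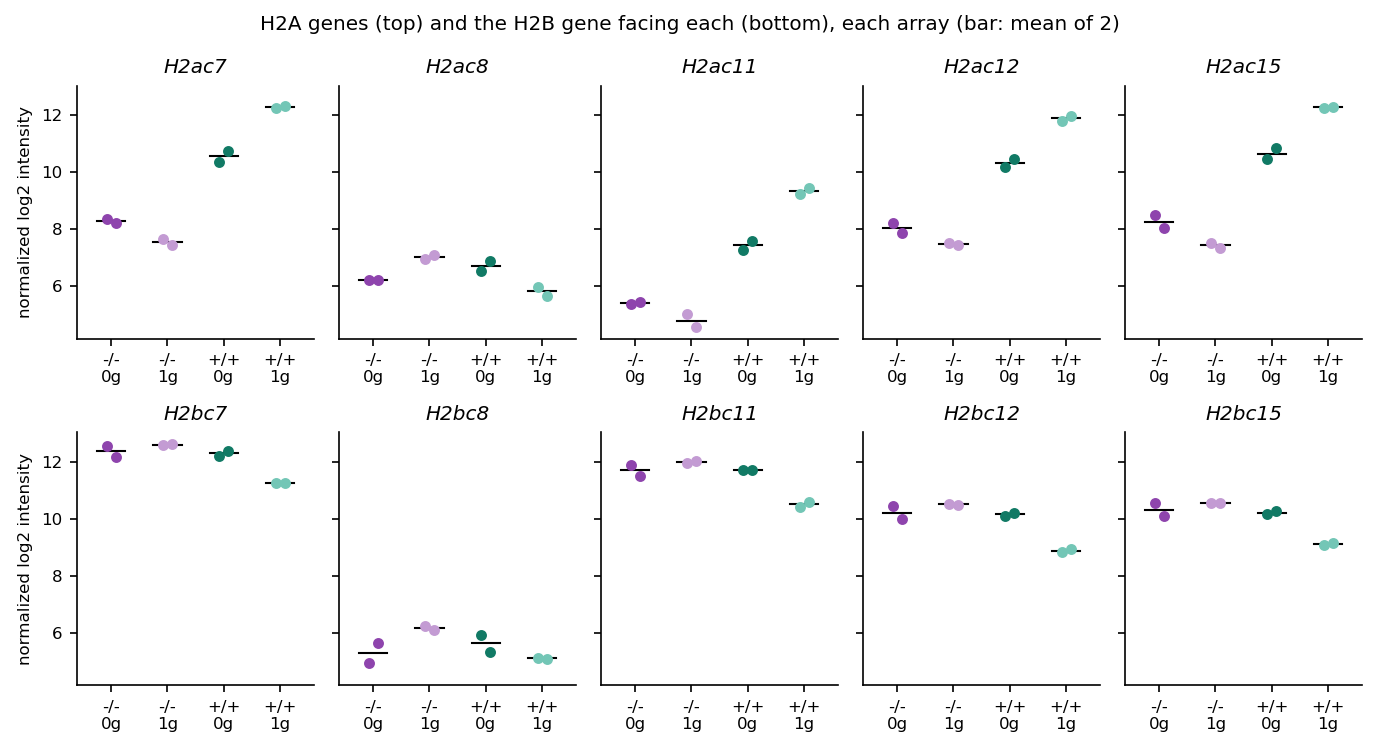
Normalized log2 intensity on each untreated array for 5 H2A genes (top row) and the H2B gene that faces each (bottom row), with the mean of the 2 arrays of a group as a bar. In 4 pairs the Pthrp+/+ arrays at 1g are the highest for the H2A gene and the lowest for the H2B gene, and in the H2ac8/H2bc8 pair both genes have negative interactions.

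Genes called in heat shock, NRF2, AHR and p53 lists were mostly lower. Of 23 heat shock proteins 14 were called lower and 0 higher (60.9%, beside 25.9% of all genes, median -0.65). Hspa1a, an inducible chaperone, stood at 5.9 and 6.35 in Pthrp-/- TOs at 0g, 7.17 and 7.26 in Pthrp-/- TOs at 1g, 7.95 and 7.49 in Pthrp+/+ TOs at 0g, and 5.83 and 5.84 in Pthrp+/+ TOs at 1g, an interaction of -2.98 ± 0.23 (adjusted p = 8.21e-07). The Pthrp-/- arrays at 0g and the Pthrp+/+ arrays at 1g were the low ones. The small chaperones Hspb1, Cryab and Hspb8 had -2.43 ± 0.2, -1.92 ± 0.17 and -1.67 ± 0.15. Of the 23, 4 were called lower under exchanged labels, beside 6.04% of all genes.

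Of 27 genes of NRF2 and glutathione defence 13 were called lower and 2 higher (55.6%, beside 25.9% of all genes, median -0.58). Of 6 genes driven by the aryl hydrocarbon receptor (AHR) 5 were called lower and 0 higher (83.3%, median -1.46). Nqo1, a quinone reductase in both lists, stood at 11.2 and 11.04 in Pthrp-/- TOs at 0g, 11.64 and 11.52 in Pthrp-/- TOs at 1g, 10.29 on both arrays of Pthrp+/+ TOs at 0g, and 7.94 and 7.68 in Pthrp+/+ TOs at 1g. The Pthrp+/+ arrays at 1g were far below the others, with an interaction of -2.94 ± 0.17, and -2.02 with the labels exchanged. The glutathione enzymes Gsto1, Gstp1 and Gss had -1.55 ± 0.15, -1.31 ± 0.19 and -1.24 ± 0.23, with 1 further probe of Gstp1 at -0.98 (adjusted p = 0.0829). The aldehyde dehydrogenase Aldh3a1, another AHR target, was higher at 0g than at 1g in both genotypes, by 0.9 in Pthrp-/- and 3.22 in Pthrp+/+ TOs, an interaction of -2.32 ± 0.17. Ahrr, which represses the receptor, had -2.22 ± 0.16, and Cyp1b1, a monooxygenase, -0.69 ± 0.2. Cyp1b1 was not called without Pthrp+/+ 1g replicate 2 (-0.61), Pthrp-/- 0g replicate 1 (-0.49) or Pthrp-/- 1g replicate 2 (-0.59). Of 25 targets of p53 12 were called lower and 3 higher (60%, median -0.52). The kinase Plk3 had -1.21 ± 0.24, the apoptosis gene Pmaip1 -1.18 ± 0.22, Mdm2, the ligase that degrades p53, -1.12 ± 0.15 and Sesn1 1.3 ± 0.14. A second probe of Pmaip1 gave -0.47 and was not called. For p53 targets 11 were also called lower with the labels exchanged.

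In glycolysis most genes were lower at 0g in both genotypes, and hypoxia-induced genes were divided, as counted above. Of 25 hypoxia-induced genes 10 were called higher and 2 lower (48%, beside 25.9% of all genes, median 0.49). Egln3, an oxygen-sensing hydroxylase, stood at 5.32 and 5.49 in Pthrp-/- TOs at 0g and 5.93 and 6.08 in Pthrp-/- TOs at 1g, against 6.5 and 6.77 in Pthrp+/+ TOs at 0g and 9.25 and 9.3 in Pthrp+/+ TOs at 1g. Both genotypes were lower at 0g than at 1g, with differences of -0.6 in Pthrp-/- and -2.64 in Pthrp+/+ TOs, and the interaction was 2.04 ± 0.18. Pdk1 and Ndrg1, whose differences had opposite signs in the genotypes, had 2.68 ± 0.18 and 2.25 ± 0.15, and the carbonic anhydrase Car9, detected on neither array of both Pthrp-/- groups, 3.19 ± 0.18. With exchanged labels 20 of the 25 were called higher and 0 lower (median 1.05). Of 14 glycolysis enzymes 4 were called higher and 1 lower (35.7%, beside 25.9% of all genes, median 0.24). Among them were Pfkl (1.76 ± 0.17, with a second probe at 0.42 that was not called), Aldoa (0.92 ± 0.19), Aldoc (1.97 ± 0.16, detected in Pthrp+/+ TOs only) and the neuronal enolase Eno2 (-0.95 ± 0.14). With the labels exchanged 10 of the 14 were called higher and 1 lower.

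Immune gene lists are read beside the difference in macrophage markers given above. Of 30 macrophage genes 23 were called higher and 1 lower (80%, beside 25.9% of all genes, median 1.03). However, 20 of the 30 were detected on neither array of both Pthrp-/- groups, and their interaction rests on the Pthrp+/+ arrays. Mrc1, the mannose receptor of macrophages, stood at 4.32 and 4.73 in Pthrp-/- TOs at 0g and 4.62 and 4.5 in Pthrp-/- TOs at 1g, against 8.83 and 8.71 in Pthrp+/+ TOs at 0g and 11.1 and 11.17 in Pthrp+/+ TOs at 1g. The Pthrp-/- arrays overlapped with each other below detection, and the interaction of 2.33 ± 0.22 stands beside a 0g minus 1g difference of -2.37 within Pthrp+/+ TOs. Pf4 and C1qa, also undetected in Pthrp-/- TOs, had 1.72 ± 0.24 and 1.56 ± 0.16, and Aif1, detected in all groups, had 1.71 ± 0.27. Among the 10 macrophage genes detected in all groups 5 were called higher and 1 lower. The lower one was Lyz1, a lysozyme, at -0.55 by its brightest probe, while its 2 other probes, undetected in both Pthrp-/- groups, had 2.59 and 2.98. The brightest probe stood at 15.01 and 15.06 in Pthrp+/+ TOs at 0g and 15.11 and 15.04 in Pthrp+/+ TOs at 1g. Whether so bright a signal was saturated was not tested.

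Of 28 interferon-stimulated genes 16 were called higher and 0 lower (57.1%, beside 25.9% of all genes, median 0.79). The counts were 8 and 0 of 15 genes of MHC class I and antigen processing (53.3%, median 0.86). They were 7 and 0 of 11 complement genes outside C1q (63.6%, median 0.75). Isg15, a ubiquitin-like protein, had 1.78 ± 0.34, Oasl2 1.83 ± 0.23, and the interferon-induced GTPases Ifi47 and Gbp2 1.4 ± 0.23 and 1.36 ± 0.16, with a second probe of Gbp2 at 0.42 that was not called. Psmb9, a subunit of the immunoproteasome, had 1.51 ± 0.21, and H2-M3, H2-T23 and H2-Q8 had 1.28 ± 0.17, 1.24 ± 0.17 and 1.4 ± 0.21, the last undetected in both Pthrp-/- groups. The complement genes C4b, Serping1 and Cfb had 1.97 ± 0.24, 1.84 ± 0.14 and 2.32 ± 0.25, but Cfb was undetected in both Pthrp-/- groups, so its value rests on the Pthrp+/+ arrays. Clu, a secreted chaperone that restrains complement, stood at 9.77 and 10.02 in Pthrp-/- TOs at 0g, 9.54 and 9.57 in Pthrp-/- TOs at 1g, 7.67 and 7.7 in Pthrp+/+ TOs at 0g, and 10.73 and 10.69 in Pthrp+/+ TOs at 1g. Its Pthrp-/- levels were close together and its Pthrp+/+ levels far apart, with an interaction of 3.37 ± 0.15 (adjusted p = 4.75e-09). Both Pthrp-/- groups were undetected for 7 of the 28 interferon-stimulated, 3 of the 15 MHC and 4 of the 11 complement genes. The part of macrophage RNA in these lists was not tested. Of 23 CC and CXC chemokines 10 were called higher and 6 lower (69.6%, median 0.47). However, 12 were undetected in both Pthrp-/- groups, and of the 11 detected in all groups 6 were called higher and 4 lower. Among them were Cxcl12, a ligand that retains blood stem cells in bone marrow, at 2.9 ± 0.16 and the monocyte attractants Ccl2 and Ccl7 at -2.66 ± 0.21 and -1.99 ± 0.25. Of 18 acute-phase and iron-handling genes 6 were called higher and 4 lower (55.6%, median 0.09), with 5 undetected in both Pthrp-/- groups.

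Lists of basic cell machinery were read beside the 25.9% of all genes that were called, and no difference from that share was tested. Of 66 subunits of oxidative phosphorylation 1 was called higher and 6 lower (10.6%), of 56 cytosolic ribosomal proteins 3 and 4 (12.5%), and of 13 genes of fatty acid synthesis 0 and 2 (15.4%). Of 31 proteasome subunits 0 were called higher and 7 lower (22.6%), and of 22 ER chaperones and unfolded protein response genes 0 and 5 (22.7%). These shares were near that of all genes in either direction, but all the calls were lower, beside 12.9% of all genes called lower. The median interaction was -0.19 for oxidative phosphorylation, 0 for ribosomal proteins, -0.33 for proteasome subunits and -0.4 for the ER list.

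**Figure D4:**
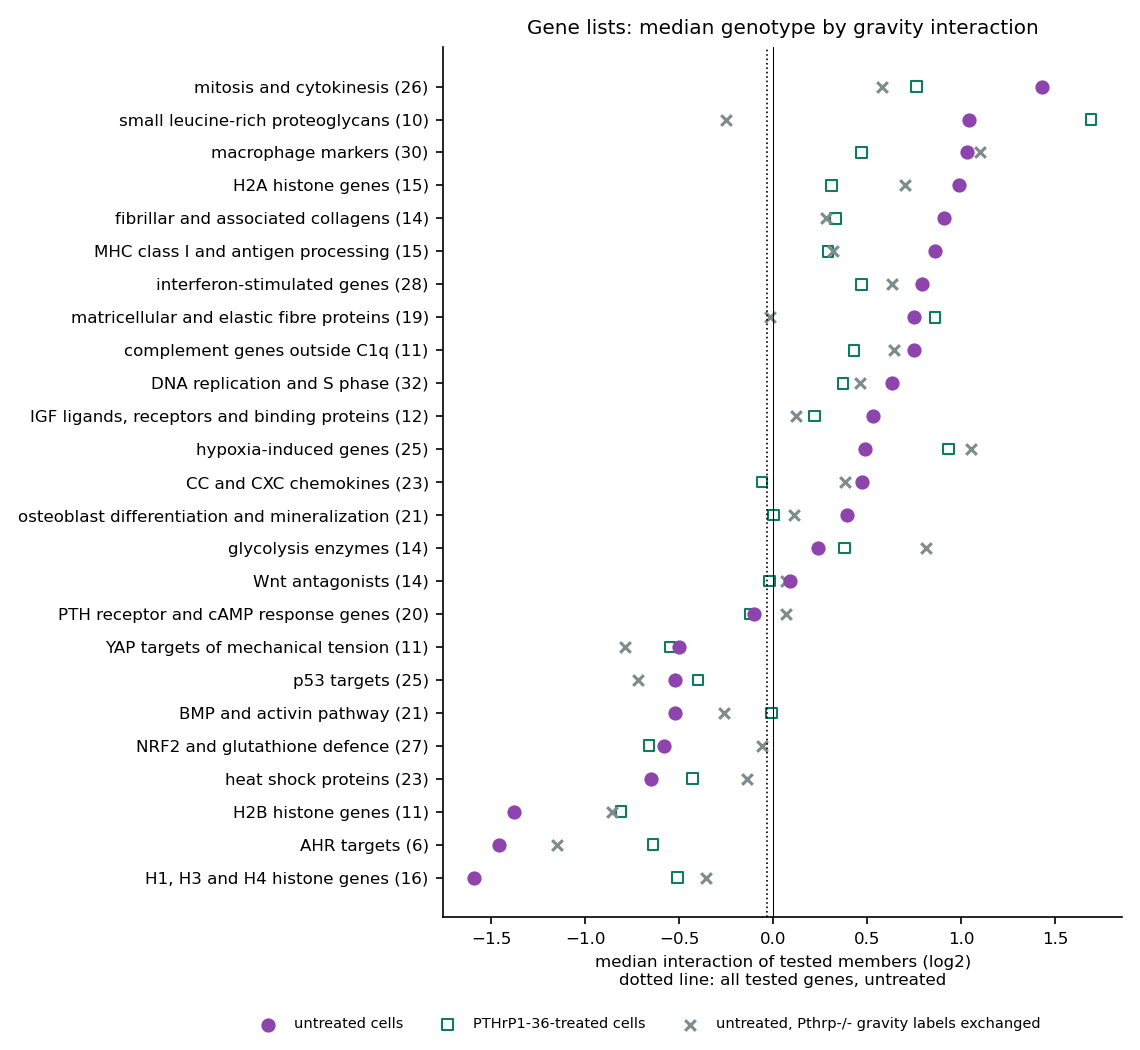
Median interaction (log2, horizontal axis) of the tested members of 25 gene lists, whose number is in parentheses, in untreated cells (filled circles), in cells treated with PTHrP1-36 (open squares) and in untreated cells with the gravity labels of the Pthrp-/- arrays exchanged (crosses). Medians in untreated cells run from 1.43 for mitosis to -1.59 for H1, H3 and H4 histones, and only small leucine-rich proteoglycans, matricellular proteins and PTH response genes have crosses on the other side of 0 from their circles.

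The next genes, chosen after their values were seen, were called either with the same sign under both labellings or with a sign that turned. Called with the same sign under both were Clu (3.37, and 2.69 with the labels exchanged), Tril, a coreceptor of toll-like receptors (3.23 and 2.18), Pdk1 (2.68 and 2.1), Igfbp3 (2.28 and 2.89), Aqp5 (-5.3 and -3.16), Inhbb (-3.95 and -2.59), Nkd2 (-2.87 and -2.41) and the protease Klk8 (-2.57 and -2.42). The same sign under both labellings means, by construction, a larger gravity difference in Pthrp+/+ TOs, which ran from -3.03 to -2.39 in the first 4 and from 2.49 to 4.23 in the last 4. A sign that turns means in the same way a larger difference in Pthrp-/- TOs. Cxcl1, a neutrophil attractant, stood at 8.52 and 8.49 in Pthrp-/- TOs at 0g and 6.81 and 6.9 in Pthrp-/- TOs at 1g, against 12.13 and 12.43 in Pthrp+/+ TOs at 0g and 11.95 and 11.89 in Pthrp+/+ TOs at 1g, an interaction of 1.28 ± 0.16. The Pthrp-/- groups were separate and low, and the Pthrp+/+ groups high and near each other. The chemokine scavenger Ackr4 (2.44), the collagen receptor subunit Itga11 (1.26) and the chemokine Cxcl14 (1.34, but 0.12 by its brighter probe) had higher interactions of the same kind, and the calcineurin inhibitor Rcan1 (-1.78), the phosphatase Dusp4 (-1.48), the ribonucleotide reductase subunit Rrm2 (-1) and the collagen hydroxylase P3h2 (-0.99) lower ones.

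The interaction was also measured in the 8 arrays treated with PTHrP1-36, which share no array with the untreated ones, although at 0g a treated and an untreated vessel were turned together. In treated cells 12.1% of genes were called, 6.94% higher and 5.2% lower. Of the 2702 genes called in untreated cells 1004 (37.2%) were called here with the same sign, 5 with the other sign, and 2486 (92%) had the same sign. Pearson's r of the untreated and treated interactions was 0.772 over 10438 genes. Scara5, Lum and Cck had 4.74, 4.25 and -6.23 in treated cells, against 5.35, 4.33 and -6.84 in untreated cells. The difference between untreated and treated interactions was called for 133 genes (1.27%), of which 119 were called in untreated cells and 116 of these had the larger interaction there. Being called in untreated cells itself favours a larger interaction there, and the like count for genes called in treated cells was not made. Rbm3 had 0.57 in treated and 3.84 in untreated cells, a difference of untreated minus treated of 3.27 (adjusted p = 3.04e-05). Prl2c3 had -3.5 in treated and -6.74 in untreated cells, Aqp5 -3.02 and -5.3, Eln 2.11 and 4.18, and Bmp4 3.07 and 4.55. Klk8, which had -0.36 in treated and -2.57 in untreated cells, and Cxcl1, at 2.83 and 1.28, were chosen after their values were seen.

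**Figure D5:**
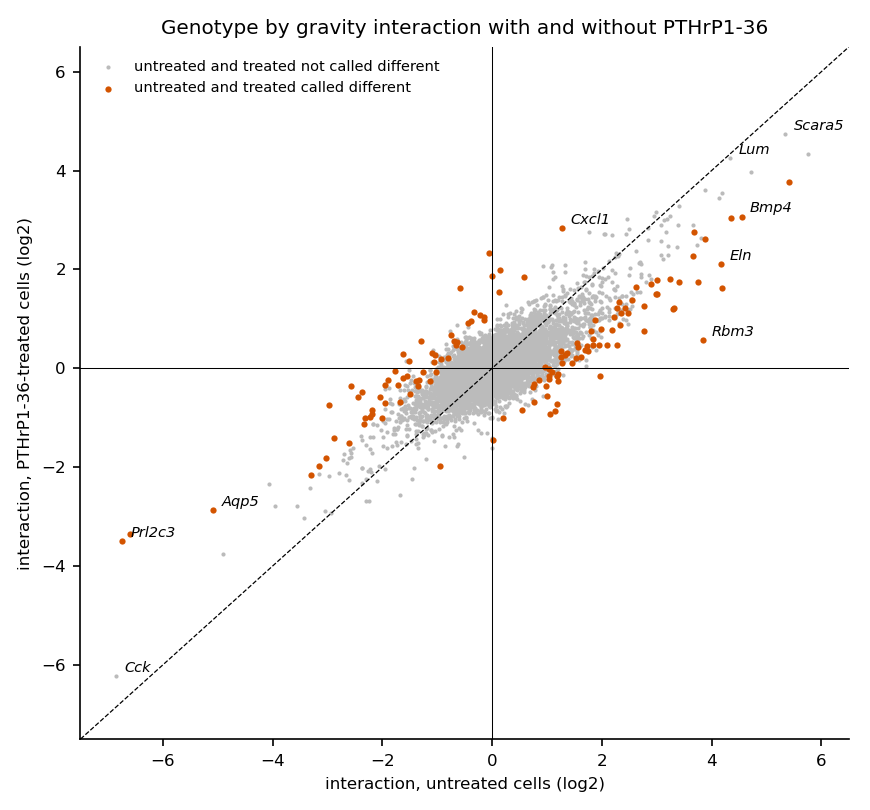
Interaction in treated cells (vertical axis, log2) against that in untreated cells (horizontal axis, log2), 1 point per tested gene, with equal values dashed. Points follow the dashed line with r = 0.772, and most of the 133 genes called different (orange) lie closer to 0 in treated than in untreated cells, as Rbm3, Prl2c3 and Aqp5 do.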

How the data were processed

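Gene expression of the 16 cultures was measured with Illumina BeadChips (Mouse Ref-8 v2.0), and the authors normalized their signals with lumi. The deposited intensity of each probe, linear and not normalized, was the starting point, together with the detection p-value that the authors deposited for it. The log2 values normalized and deposited by the authors were an alternative. Background was corrected with normexp from the detection p (offset 16) in limma 3.58.1 (R 4.3.3), followed by quantile normalization and log2. Of 25697 probes, 23978 had 1 gene symbol and 1719 none. Testing took probes with a detection p under 0.05 on 2 or more of the 16 arrays, 15279 probes of 10438 genes. Arrays have no depth in counts, so their number limits the precision.

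The model held 8 condition means over 16 arrays (lmFit, eBayes), with 8 residual and 5.1 prior degrees of freedom. The contrast used the 8 untreated arrays, and two-sided p-values were adjusted by Benjamini-Hochberg over all tested probes. Lists (53 in all) took the brightest probe per gene. Where a group had no detection, folds are bounds set by the lowest detected level per array (4.78 to 5.05, log2). Named genes were the 12 highest and 12 lowest called genes detected on all 8 arrays, the 6 highest and 6 lowest with a bound, up to 4 called members of each described list, and Pth1r. The members and lists were chosen with earlier results of these data known. The scripts were tested on simulated data. Alternatives were the background correction, normalization, filter, variance model, array weights, replicate blocks, a fold threshold, treated cells, exchanged labels and leaving out each array. Same-numbered arrays deviated from their group means with correlations of -0.302 to 0.217. These values cannot decide whether same-numbered cultures were paired, and the main fit held no block. At 0g a treated and an untreated vessel were turned together. Which of the numbered arrays shared a rotation run or a slide is not given in the sources used here.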

Additional observations from a re-analysis of the deposited data

Results flagged for a closer look

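The gravity difference differed between Pthrp-/- and Pthrp+/+ TOs in 2941 genes by the test of the interaction itself. The interaction differed in turn between untreated and treated cells in 150 genes by any probe. Among the 12 highest and 12 lowest genes detected on all 8 arrays, the called untreated minus treated differences of the interaction were 1.48 for Bmp4, 1.31 for Igfbp5, 2.07 for Eln, 1.26 for Abi3bp and 3.27 for Rbm3. They were -3.25 for Prl2c3, -3.24 for Prl2c4, -2.28 for Aqp5, -1.73 for Esd, -1.14 for H4c8 and -1.18 for H2bc6. The difference was also called for other genes described above, among them Igfbp3 (1.81), Nkd2 (-1.47), Klk8 (-2.21) and Cxcl1 (-1.55). Genes with a bound were called too, among them Rarres2 (2.01), Hp (2.13) and Meox1 (2.09). Of the called probes, 227 had no gene symbol here and enter no gene count.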

How the results depend on the processing

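With 2 arrays per group, the counts depend on how the spread is estimated. A fit to the 8 untreated arrays alone called 1907 genes (868 lower), and array weights called 972 lower, against 2941 (1505 lower). A threshold of 1 on the absolute log2 interaction left 1119 (677 higher, 442 lower). Cyclic loess normalization gave 1781 higher and 1147 lower, a share of 60.8% higher against 48.8%. Treated cells gave 1382 (767 higher, 615 lower), and exchanged labels 1508 (803 higher, 707 lower). Leaving out 1 array gave 2294 to 3364 genes, 1196 to 1607 higher and 1099 to 1768 lower. With the replicate number as a block 2919 genes were called, and 3063 with a block within genotype.

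Apart from treated cells and exchanged labels, no alternative turned the sign of a gene named here. In treated cells Pth1r had -0.25. With the labels exchanged the sign turned for Lum (-0.06), Dcn (-0.36 and -0.76), Rbm3 (-0.12), Prl2c1 (0.89), Chrna1 (1.32), 1700012B09Rik (0.69), Slco4a1 (0.69), Notum (0.52), Anln (-0.01), Pbk (-0.24), Gsto1 (0.17), Gbp2 (-0.06), Ccl2 (0.32), Ccl7 (0.67), Ramp3 (0.41), Nr4a2 (0.43) and H2bc8 (0.33), and for the genes chosen because it turned, Cxcl14 (-1.36), Cxcl1 (-2.01), Ackr4 (-1.12), Itga11 (-1.11), Rcan1 (1.45), P3h2 (1.33), Dusp4 (0.98) and Rrm2 (0.9). The cause was not tested. Counted over the named genes and these alternatives, 1692 values kept their sign and side of the threshold and 59 kept the sign but not the call. Without 1 array 1103 kept both, 8 lost the call (Col3a1 and Cyp1b1) and 1 gained it (Pth1r).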

Other observations

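Several further gene lists were measured. Their shares are read beside the 25.9% of all genes that were called, 12.9% higher and 12.9% lower, and no difference was tested. Of 24 Hox genes, which set position along the body axis, 10 were called lower and 0 higher (41.7%, median -0.52), but 13 were undetected in at least 1 group. Of 18 annexins and S100 proteins 6 were called lower and 0 higher (33.3%, median -0.45). Of 18 genes of cholesterol synthesis 1 was called higher and 5 lower (33.3%, median -0.38), and of 23 genes of amino acid synthesis and tRNA charging 1 and 6 (30.4%, median -0.29). Of 14 circadian clock genes 4 were called higher and 1 lower (35.7%, median 0.13). Of 16 smooth muscle contractile and actin genes 4 were called higher and 3 lower (43.8%, median 0.18), whereas 0 were called higher and 10 lower with exchanged labels (median -0.83).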
